A study of Mus musculus with 12 samples.

Results

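Glycolysis and hypoxia response genes were followed in F9 cells, a mouse teratocarcinoma line whose embryonal carcinoma cells differentiate towards endoderm when given retinoic acid (RA). The set held 34 gene symbols, listed by name with earlier results of these data known, and each gene was read from 1 probe set, the one of highest mean log2 signal among those annotated to that symbol alone. Of the 34, 31 were measured, out of 18193 genes on the array, and they had 64 probe sets in all. Bnip3l was not analysed because its probe sets carry several symbols, and Gpi1 and Eno1 have no probe set under these names in the annotation used. Total RNA was hybridised to 12 arrays, 3 in each of 4 groups. KO_RA and KO_vehicle were F9 cells labelled as knockout for the RA receptor gamma, given 1 µM RA or the ethanol vehicle alone for 24 h, and WT_RA and WT_vehicle were wild-type F9 cells treated the same way. The labels do not state whether the knockout cells are 1 clone, so genotype and clone cannot be told apart, and nothing in them says that replicate arrays are separate cultures, in which case the p-values reflect only how far the arrays spread.

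Glycolysis splits glucose into pyruvate in the cytosol. A preparatory phase spends ATP to make triose phosphates and a payoff phase recovers it, and the pyruvate then goes to lactate or into mitochondria. When oxygen is low, the prolyl hydroxylases of the Egln family no longer mark the transcription factor Hif1a for destruction, and it binds hypoxia response elements in the promoters of many of these same genes. Pluripotent stem cells are known for a high glycolytic rate that declines as they differentiate.

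Signals are the authors' MAS5 intensities on a linear scale, differences are of log2(signal + 16), and a gene was called at an adjusted p under 0.05 in limma over 45037 probe sets. A level under 65.7, the 95th percentile of 86 odorant, pheromone and taste receptor probe sets, was taken as background, and 30 of the 31 members had a mean above it, Car9 being the exception. Replicates 1, 2 and 3 of every group shared 1 hybridization run each, so differences are also given within runs and from a limma fit blocked by run. Chip lot was not balanced within runs. KO_vehicle replicates 1 and 2, KO_RA replicate 1 and WT_RA replicate 3 were on lot 2, and the other arrays were on lot 1. RA and vehicle arrays of the same run differed in lot for replicate 3 of WT cells and replicate 2 of KO cells. Lot was in no fit, so differences of genotype and of RA are in part also differences of lot. This holds within runs and blocked by run too, and the part of lot was not tested. On KO_vehicle replicate 3 the median signal was 143, against 71.2 to 94.6 on the other 11 arrays. This array and KO_RA replicate 1 were scanned 316 and 238 min after hybridization, against 13 to 59 min for the others. Rarg itself, the targeted gene, had signals of 1549.6, 1495 and 1026 in KO_RA, 1716, 1672 and 1521 in KO_vehicle, 1232, 1027 and 1471 in WT_RA and 1356, 1263 and 1809 in WT_vehicle, and so was not lower in cells labelled KO. The sources used here do not give where its probe set lies relative to the disrupted region, and KO and WT are used below as the labels give them.

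More members differed between the genotypes than between the treatments, and so did more genes of the array as a whole. For RA against vehicle, 0.824% of all genes were called in WT cells and 0.148% in KO cells. Under RA, 11 of 31 members were higher and 2 were lower in KO_RA than in WT_RA, 41.9% of the set, while 7.55% of all genes and 11.3% of the 12051 genes above background were called in either direction. The higher members alone were 35.5% of the set, and 3.26% of all genes were called higher. They were the glucose transporter Slc2a1, the lactate exporter Slc16a3, the enzymes Hk2, Pfkp, Aldoa, Tpi1, Pkm and Ldha, the pyruvate dehydrogenase kinase Pdk1, the oxygen sensor Egln3 and the mitophagy receptor Bnip3. The 2 lower ones were the fructose bisphosphatase Fbp2 and Hif1a. In the fit blocked by run, 15 were higher and 4 lower, 61.3% of the set, and 14.5% of all genes were called. The higher ones were then 48.4% of the set, and 6.76% of all genes were called higher. Without KO_vehicle replicate 3 the count was 16, and without both late-scanned arrays it was 12. The share of all genes is not given for fits without an array. Of the 13 calls, those on Slc16a3, Pfkp, Fbp2, Pdk1, Egln3 and Bnip3 were also made in limma without a trend of the spread with intensity and after each array was centred on its median. Those on Slc2a1 and Hk2 ended without the trend, and those on Aldoa, Tpi1, Pkm, Ldha and Hif1a ended under both settings, with the same direction.

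The median log2 difference between KO_RA and WT_RA was 0.41 over the 31 members and -0.046 over all genes. Within the runs of replicates 1, 2 and 3 the members' medians were 0.48, 0.51 and 0.39. Bright genes as a whole leaned the same way. Of the 343 genes with a mean signal over 10000, 14.9% were called and their median difference was 0.19. The 8 members in that range had a median of 0.67, and 5 of them were called, all higher. Between 1000 and 10000, 3922 genes had a median of 0.041 with 16.8% called, and the 15 members there had a median of 0.31 with 5 higher and 2 lower. After quantile normalization, which gives every array the same distribution, the members' median was 0.31 and 12 were called.

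**Figure D1:**
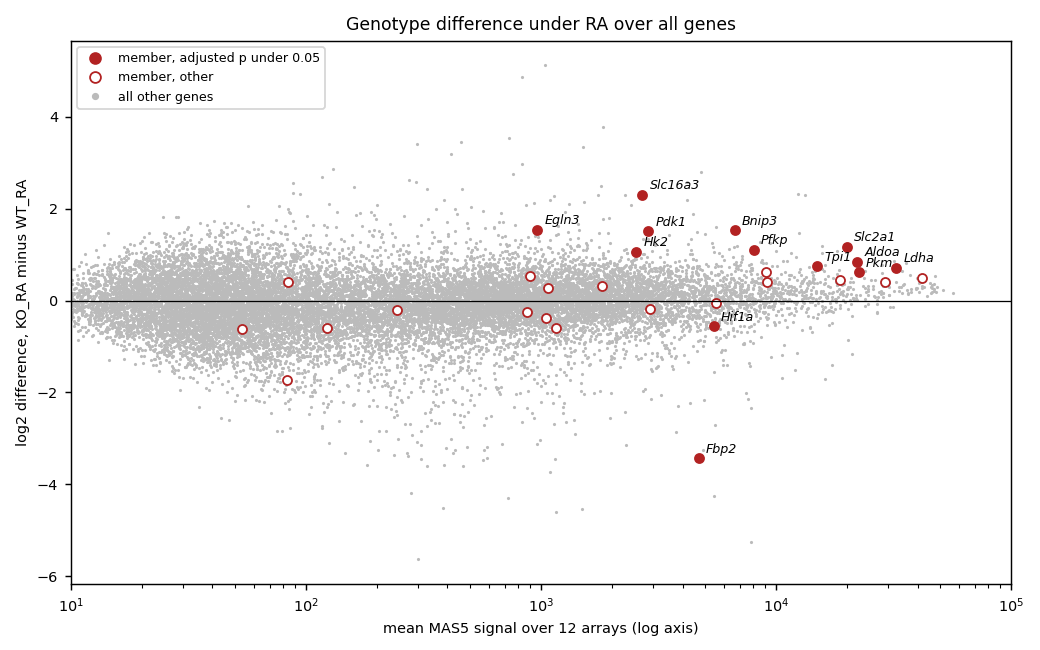
Mean MAS5 signal over 12 arrays (log axis) against the log2 difference of KO_RA minus WT_RA, with 1 point a gene, genes under a mean of 10 not drawn, and members in red, filled where the adjusted p was under 0.05. The 11 members called higher lie above most genes of their brightness, and Fbp2 lies at -3.43.

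Cell state moved with genotype in the same arrays. The 10 stem cell markers were all above background, and their summed signal was 131000 to 142000 in KO_RA, 137000 to 161000 in KO_vehicle, 83900 to 97500 in WT_RA and 122000 to 128000 in WT_vehicle. Such sums weigh the brightest probe sets most. The brightest here, Dppa5a, had means of 56931 in KO_RA and 48480 in WT_RA and was not called in any contrast. Of 10 endoderm markers 8 were above background, and the list summed to 9380 to 25600 in KO_RA and 7450 to 23900 in KO_vehicle, against 44600 to 56000 in WT_RA and 49400 to 53600 in WT_vehicle. Replicate 3 gave the low end in both KO groups. Dab2 was 198 on KO_RA replicate 3, against 1430 and 1610 on replicates 1 and 2, and 124 against 1470 and 1563 in KO_vehicle. The other markers above background were also lowest on replicate 3, except Foxa2 in KO_vehicle (153 against 101 and 91.6). Sparc, the brightest of the list, was called lower in KO cells only in the fit blocked by run. Of the markers of other cells, 2 of 7 for fibroblasts, 0 of 4 for blood and 2 of 4 for endothelium had a mean above background, and the last list summed to 832 to 1010 in KO_RA, 677 to 1210 in KO_vehicle, 468 to 542 in WT_RA and 411 to 538 in WT_vehicle. Its genes differed among themselves: the means of Pecam1 were 777 and 726 in KO_RA and KO_vehicle, against 313 and 304 in WT_RA and WT_vehicle, and those of Cdh5 were 22.5 and 27.1, against 126 and 83.5. Between KO_RA and WT_RA, 7 of the 10 stem cell markers were higher and 6 of the 10 endoderm markers were lower. Between KO_vehicle and WT_vehicle these counts were 4 and 6, and 5 stem cell markers were lower in WT_RA than in WT_vehicle. Of the 10 endoderm markers 0 were called between WT_RA and WT_vehicle in either fit, with 4 above 0, 6 below and a median log2 difference of -0.024. The stem cell list was not uniform, since Dnmt3b was lower in KO_RA and KO_vehicle in the fit blocked by run (-0.47 and -0.98, adjusted p = 0.0222 and 2.25e-05), and Pou5f1 had values of -0.13 and -0.39, not called. The part of these differences in the results on the members was not tested. In a whole culture, fewer cells of a type and less RNA per cell cannot be told apart.

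Promoter sequence is shown for 6 members that were called between KO_RA and WT_RA and whose windows hold the motif, since the hypoxia response element is the best known control element of this set. The 6 are examples, not all such members or those of the firmest calls. Egln3, with 1 match, is not shown. Ldha, with 5 matches, is shown, although its call ended without the intensity trend and after centring. Each CACGTG counts as 2 matches, 1 on each strand, so Ldha has fewer marked places than matches. The windows are the 250 bases before the gene start in RefSeq (GRCm38.p6), read 5′ to 3′ on the gene's strand, and capitals mark ACGTG or GCGTG, the core letters of the element, on either strand. The positions are chr11:120948817-120949066, plus strand for Slc16a3, chr13:6648772-6649021, minus strand for Pfkp, chr13:62858401-62858650, minus strand for Fbp2, chr7:46845554-46845803, plus strand for Ldha, chr2:71872974-71873223, plus strand for the first of the Pdk1 starts and chr7:138909507-138909756, minus strand for Bnip3. For Ldha the first of its listed starts is shown.
Slc16a3: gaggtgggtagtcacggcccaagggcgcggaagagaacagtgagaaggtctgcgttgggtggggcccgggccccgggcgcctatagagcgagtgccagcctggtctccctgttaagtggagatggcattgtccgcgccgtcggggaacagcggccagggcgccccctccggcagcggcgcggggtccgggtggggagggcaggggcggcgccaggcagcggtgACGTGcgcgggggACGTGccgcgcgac
Pfkp: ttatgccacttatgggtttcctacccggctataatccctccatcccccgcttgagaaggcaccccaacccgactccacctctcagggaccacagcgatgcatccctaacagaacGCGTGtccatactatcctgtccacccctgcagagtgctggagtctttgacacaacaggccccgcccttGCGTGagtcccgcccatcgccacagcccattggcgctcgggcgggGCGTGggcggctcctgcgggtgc
Fbp2: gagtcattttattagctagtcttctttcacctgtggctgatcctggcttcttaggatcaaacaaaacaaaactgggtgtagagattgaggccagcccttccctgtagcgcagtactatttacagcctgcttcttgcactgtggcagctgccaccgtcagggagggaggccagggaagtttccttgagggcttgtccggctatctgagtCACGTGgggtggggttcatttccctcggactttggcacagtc
Ldha: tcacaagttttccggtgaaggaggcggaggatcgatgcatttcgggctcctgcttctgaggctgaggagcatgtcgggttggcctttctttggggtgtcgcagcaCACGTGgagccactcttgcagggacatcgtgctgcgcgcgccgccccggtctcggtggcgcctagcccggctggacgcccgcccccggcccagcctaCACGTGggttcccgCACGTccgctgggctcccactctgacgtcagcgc
Pdk1: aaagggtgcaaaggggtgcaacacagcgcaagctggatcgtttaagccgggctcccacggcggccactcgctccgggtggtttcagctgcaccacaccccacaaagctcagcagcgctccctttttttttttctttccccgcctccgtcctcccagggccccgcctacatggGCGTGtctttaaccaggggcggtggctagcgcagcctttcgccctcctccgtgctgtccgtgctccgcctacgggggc
Bnip3: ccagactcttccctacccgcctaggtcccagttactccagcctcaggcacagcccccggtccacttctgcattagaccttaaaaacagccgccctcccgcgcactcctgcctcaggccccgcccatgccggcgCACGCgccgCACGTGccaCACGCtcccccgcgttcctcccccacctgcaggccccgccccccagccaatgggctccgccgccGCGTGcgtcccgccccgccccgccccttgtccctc
Slc16a3 has ACGTG at 2 places close to its start, Pfkp has GCGTG at 3 places, and Pdk1 has GCGTG at 1 place. The Ldha window holds the E-box letters CACGTG at 2 places and Bnip3 and Fbp2 hold them at 1 place each, and since CACGTG contains ACGTG on both strands, each E-box is counted for both motifs. Windows were found for 30 of the 31 measured members, and 28 of these genes (93.3%) had ACGTG or GCGTG in at least 1 window, against 41.5% of 27025 genes. The 2 without it were Tpi1, which was higher in KO_RA, and Eno2, and the window of the second Pdk1 start holds none either. By window the shares were 34 of 42 (81.0%) and 38.6% of 32851. CACGTG stood in windows of 7 of the 30 members (23.3%) and of 6.86% of genes. Fbp2, the member that was far lower in KO cells, also holds these letters. The letters contain the dinucleotide CG, windows were not matched for base composition, and a match is not a binding site.

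In transport across the plasma membrane, Slc2a1 and Slc16a3 were higher in KO_RA than in WT_RA. Slc16a3 (probe set 1449005_at) encodes MCT4, the low-affinity exporter of lactate used by highly glycolytic cells. Its signals were 6754, 4905 and 2510.4 in KO_RA, 4924, 4779 and 2209 in KO_vehicle, 1027, 796 and 810.1 in WT_RA and 1467, 1277 and 900.5 in WT_vehicle. All 6 KO arrays were above all 6 WT arrays, although replicate 3 was the lowest in both KO groups. It was 4.94-fold higher in KO_RA than in WT_RA, a log2 difference of 2.30 (SE 0.32, adjusted p = 0.000278), and 3.11-fold higher in KO_vehicle than in WT_vehicle, 1.64 (SE 0.32, adjusted p = 0.00633).

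Slc2a1 (probe set 1434773_a_at) encodes GLUT1, the main glucose importer of proliferating cells. Its signals were 29086, 27516 and 28494 in KO_RA, 24661, 26066 and 21399 in KO_vehicle, 11118, 11196 and 16024 in WT_RA and 10859, 11267 and 21989.7 in WT_vehicle. The KO_RA arrays did not overlap the WT_RA arrays, but WT_vehicle replicate 3 lay above KO_vehicle replicate 3. The difference under RA was 1.17 (SE 0.22, adjusted p = 0.00357), a 2.25-fold rise, and in vehicle it was 0.78 (SE 0.22, adjusted p = 0.055, 0.00447 blocked by run). Within runs the vehicle differences were 1.18, 1.21 and -0.039. Its other 2 probe sets were both called higher in vehicle as well, at log2 differences of 0.82 and 0.96 (adjusted p = 0.0206 and 0.0141).

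Slc2a3, the high-affinity neuronal and embryonic transporter GLUT3, had mean signals of 33825 ± 6272 in KO_RA, 29796 ± 7939 in KO_vehicle, 25449 ± 981 in WT_RA and 27067 ± 468 in WT_vehicle (SD, n = 3 arrays a group). Its chosen probe set gave 0.39 (SE 0.19, adjusted p = 0.338) under RA and was not called. Another 2 of its 4 probe sets were called higher in KO_RA, with log2 differences of 0.73 and 0.99 (adjusted p = 0.0486 and 0.00424), so its call depends on the probe set. Slc16a1, the lactate and pyruvate carrier MCT1, was the only transporter with a negative genotype difference in both media. Its signals were 1799.7, 2172 and 3066 in KO_RA, 3351, 2605 and 3075 in KO_vehicle, 2442, 2729 and 2662 in WT_RA and 3554, 3694 and 3805 in WT_vehicle, and the differences, -0.19 (SE 0.17, adjusted p = 0.734) under RA and -0.30 (SE 0.17, adjusted p = 0.425) in vehicle, were not called.

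The preparatory phase held 4 of the higher members. Hk2 (probe set 1422612_at) is a hexokinase that is prominent in many tumour and embryonic cells. Its signals were 3460.5, 3526 and 2531 in KO_RA, 3833, 3384 and 2561 in KO_vehicle, 1706, 1787 and 1093 in WT_RA and 2272, 2170.0 and 2223 in WT_vehicle. KO_RA and WT_RA did not overlap, nor did the 2 vehicle groups. Its difference was 1.06 (SE 0.20, adjusted p = 0.00322) under RA and 0.53 (SE 0.20, adjusted p = 0.171, 0.00915 blocked by run) in vehicle. The ubiquitous hexokinase Hk1 had mean signals of 727 ± 15.5 in KO_RA, 858 ± 272 in KO_vehicle, 877 ± 113 in WT_RA and 1029 ± 60.8 in WT_vehicle and was not called, with -0.26 (SE 0.20, adjusted p = 0.647) under RA.

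Phosphofructokinase, the committing step, has 3 isoforms, whose differences had different signs. The platelet form Pfkp (probe set 1416069_at) had signals of 10639, 10056 and 10729 in KO_RA, 11739, 11898 and 9806 in KO_vehicle, 5358, 4912 and 4362 in WT_RA and 5469.5, 6244 and 5366 in WT_vehicle. The 6 KO arrays ranged above the 6 WT arrays without overlap and with little spread. It was 2.15-fold higher in KO_RA, 1.10 (SE 0.13, adjusted p = 6.88e-05), and 1.95-fold higher in KO_vehicle, 0.97 (SE 0.13, adjusted p = 0.000351). The liver form Pfkl gave 0.41 (SE 0.16, adjusted p = 0.181) and the muscle form Pfkm -0.38 (SE 0.19, adjusted p = 0.369) under RA, neither of them called. Only within 1 gene can these signals be compared, since probe sets of different genes respond differently.

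Aldoa, the ubiquitous aldolase, and Tpi1, which interconverts the triose phosphates, followed under RA. Aldoa (probe set 1416921_x_at) had signals of 26007, 25342 and 30296 in KO_RA, 23191, 26693 and 25968 in KO_vehicle, 13253, 13966 and 18483 in WT_RA and 18485, 17339.9 and 26101 in WT_vehicle. KO_RA stood clear of WT_RA, while WT_vehicle replicate 3 reached the KO_vehicle arrays. Its difference was 0.85 (SE 0.17, adjusted p = 0.00617) under RA and 0.31 (SE 0.17, adjusted p = 0.398) in vehicle, and 3 of its other probe sets were called higher in KO_RA with log2 differences of 0.86 to 0.92.

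Tpi1 (probe set 1415918_a_at) had signals of 16733, 16029.6 and 19107 in KO_RA, 17566, 18413 and 16642 in KO_vehicle, 9618, 9629 and 11791 in WT_RA and 12914, 12785 and 18295 in WT_vehicle. The pattern over arrays resembled that of Aldoa, with WT_vehicle replicate 3 again the highest WT array. Its difference was 0.74 (SE 0.16, adjusted p = 0.00795) under RA and 0.28 (SE 0.16, adjusted p = 0.411) in vehicle, and the call under RA ended without WT_RA replicate 1 or 2 (adjusted p = 0.0526 and 0.0574). The brain aldolase Aldoc had signals of 1066, 959.9 and 1108 in KO_RA, 819, 855 and 1085 in KO_vehicle, 758, 666 and 737 in WT_RA and 856, 804 and 1082 in WT_vehicle. Its RA groups did not overlap, and the difference of 0.53 (SE 0.17, adjusted p = 0.103, 0.0141 blocked by run) was called only in the fit with the block.

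At the fructose step the set held its largest difference, and it was a fall. Fbp2 (probe set 1449088_at) is the muscle form of fructose 1,6-bisphosphatase, which runs the phosphofructokinase step backwards in gluconeogenesis. Its signals were 1316, 1118 and 641 in KO_RA, 734, 909.5 and 359.8 in KO_vehicle, 10559, 11264 and 10409 in WT_RA and 5801, 6578 and 6463 in WT_vehicle. Every KO array lay far below every WT array, and each WT_RA array lay above each WT_vehicle array. Fbp2 was 10.8-fold lower in KO_RA than in WT_RA, -3.43 (SE 0.27, adjusted p = 1.07e-06), and 9.84-fold lower in KO_vehicle than in WT_vehicle, -3.30 (SE 0.27, adjusted p = 1.86e-06). Within runs the differences were -2.99, -3.31 and -3.99 under RA and -2.96, -2.83 and -4.11 in vehicle. Between RA and vehicle, Fbp2 differed by 0.64 (SE 0.27, adjusted p = 0.8, 0.259 blocked by run) in KO cells and by 0.77 (SE 0.27, adjusted p = 0.461, 0.0306 blocked by run) in WT cells.

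Pfkfb3, which makes the fructose 2,6-bisphosphate that activates phosphofructokinase, was close to background and scattered. Its signals were 119.8, 81.6 and 40.5 in KO_RA, 105, 179.5 and 275 in KO_vehicle, 100.3, 104 and 166 in WT_RA and 169, 96.5 and 41.2 in WT_vehicle. All groups overlapped, and the fitted differences of -0.59 (SE 0.49, adjusted p = 0.696) under RA and 0.85 (SE 0.49, adjusted p = 0.43) in vehicle had wide errors.

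**Figure D2:**
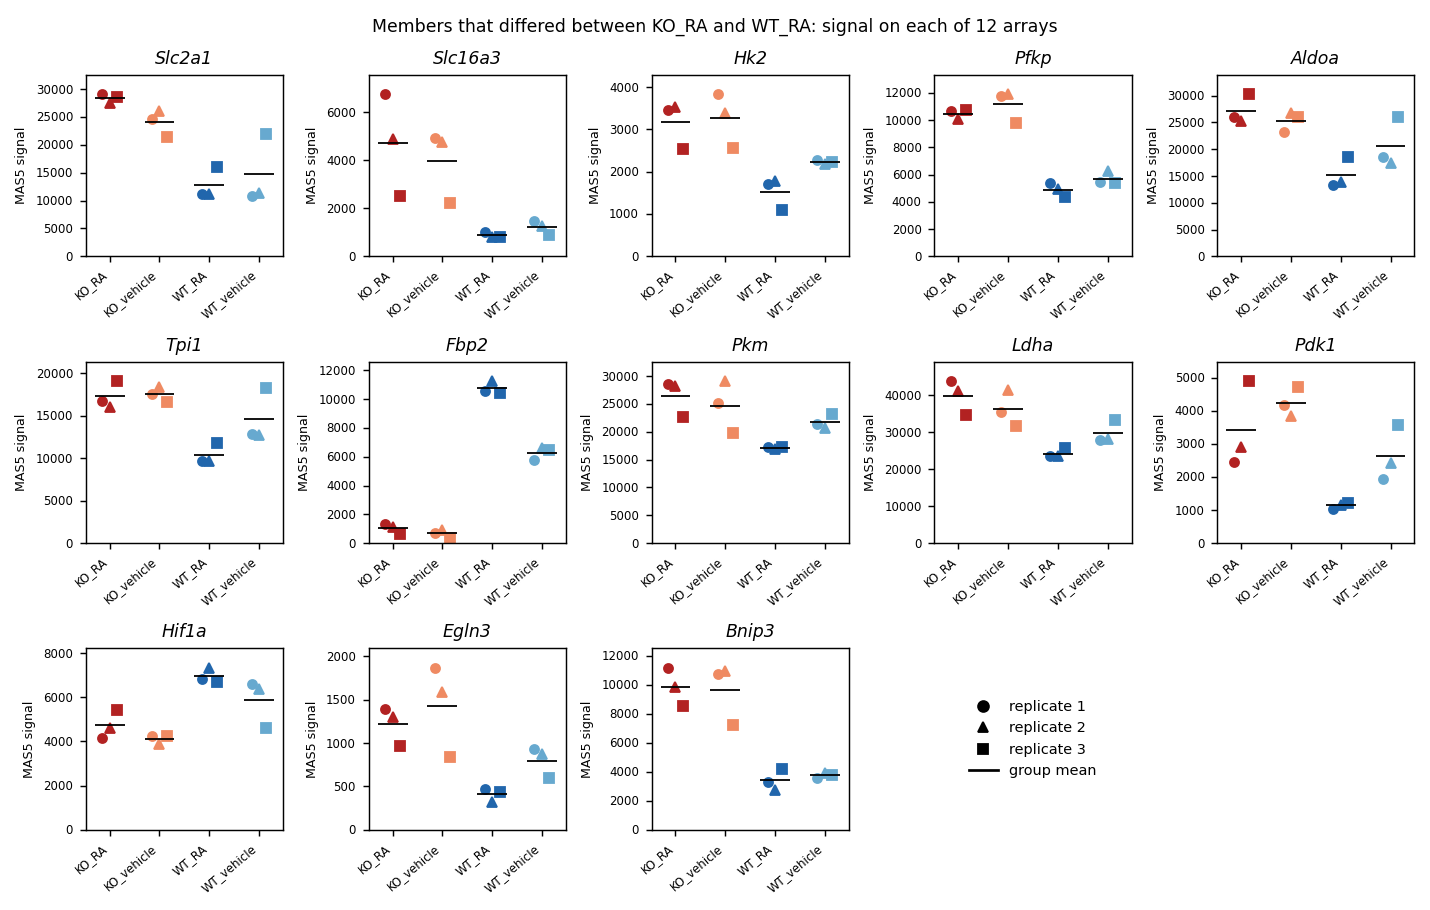
MAS5 signal (linear axis from 0) on each of the 12 arrays for the 13 members called between KO_RA and WT_RA, 3 arrays in each of 4 groups, with symbols for replicates 1 to 3 and a bar at the group mean. The KO_RA arrays lie above the WT_RA arrays for 11 genes and below them for Fbp2 and Hif1a.

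In the payoff phase 1 of 5 measured members, Pkm, was higher under RA, and blocked by run 3 were higher and 1 was lower. Pkm (probe set 1417308_at) encodes a pyruvate kinase whose splice forms were not told apart here. Its signals were 28507, 28201 and 22641 in KO_RA, 25076, 29108 and 19793 in KO_vehicle, 17167, 16909 and 17329.8 in WT_RA and 21453, 20579.6 and 23128 in WT_vehicle. KO_RA lay above WT_RA on all arrays, and the vehicle groups overlapped. The difference was 0.62 (SE 0.15, adjusted p = 0.0252) under RA, a call that ended without any 1 of 5 RA arrays (KO_RA replicates 1 and 2 and WT_RA replicates 1, 2 and 3, adjusted p of 0.0624 to 0.118) and after quantile normalization (a difference of 0.40). In vehicle it was 0.17 (SE 0.15, adjusted p = 0.649).

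Pgk1, phosphoglycerate kinase and the first ATP-yielding step, had signals of 54196, 50048 and 42829.8 in KO_RA, 38731, 53651 and 38419 in KO_vehicle, 33164, 41289 and 31094 in WT_RA and 42039, 34311 and 43179 in WT_vehicle. The RA groups did not overlap, with KO_RA higher. The difference under RA was 0.48 (SE 0.17, adjusted p = 0.15, 0.0489 blocked by run), and another of its 3 probe sets was called without the block, at 1.37 (adjusted p = 0.00163), so its size depends on the probe set. Pgam1, the mutase of the next step, had signals of 21057, 20234 and 19654 in KO_RA, 20104, 23175 and 17235 in KO_vehicle, 15110.0, 14323 and 15001 in WT_RA and 18826, 18765 and 21182 in WT_vehicle. These groups did not overlap under RA either, and the difference was 0.46 (SE 0.14, adjusted p = 0.0673, 0.0187 blocked by run).

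The neuronal enolase Eno2 was near background. Its signals were 28.2, 19.8 and 59.2 in KO_RA, 13.9, 14.8 and 91.1 in KO_vehicle, 129, 137 and 178 in WT_RA and 89.6, 109.8 and 129 in WT_vehicle. No KO_RA array reached the background level of 65.7, while all 3 WT_RA arrays did. With KO_RA set at that level, Eno2 was 2.23-fold lower than in WT_RA, a bound that carries no error. The difference was called only in the fit blocked by run (limma, adjusted p = 0.0733, 0.0261 blocked by run). The muscle enolase Eno3 had mean signals of 218 ± 57.1 in KO_RA, 212 ± 43.6 in KO_vehicle, 256 ± 61.2 in WT_RA and 291 ± 44 in WT_vehicle and a difference of -0.21 (SE 0.28, adjusted p = 0.845) under RA.

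Pyruvate meets lactate dehydrogenase and the pyruvate dehydrogenase kinases. Pdk1 (probe set 1423747_a_at) inactivates pyruvate dehydrogenase and so holds pyruvate back from mitochondria. Its signals were 2463, 2909 and 4905 in KO_RA, 4186, 3835 and 4730.0 in KO_vehicle, 1045, 1151 and 1219 in WT_RA and 1952, 2425 and 3567 in WT_vehicle. The 3 WT_RA arrays were below the other 9, and the vehicle groups did not overlap either. Pdk1 was 2.86-fold higher in KO_RA than in WT_RA, 1.51 (SE 0.23, adjusted p = 0.000591), and its vehicle difference was 0.72 (SE 0.23, adjusted p = 0.0993, 0.00155 blocked by run). A second of its 4 probe sets was called in both, at 1.54 under RA (adjusted p = 3.61e-06) and 0.73 in vehicle (adjusted p = 0.00432). Values of its remaining probe sets are not given singly, here or for the other contrasts of Pdk1.

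Ldha (probe set 1419737_a_at), the lactate dehydrogenase subunit that favours lactate, had signals of 43907, 41194 and 34722 in KO_RA, 35478, 41564 and 31754 in KO_vehicle, 23449.6, 23449.8 and 25699 in WT_RA and 27941, 28080.3 and 33322 in WT_vehicle. Its KO_RA arrays were all above its WT_RA arrays, and in vehicle the groups overlapped. The difference was 0.72 (SE 0.15, adjusted p = 0.00761) under RA, with an adjusted p of 0.0509 without KO_RA replicate 1, and 0.28 (SE 0.15, adjusted p = 0.382) in vehicle. Ldhb, the subunit that favours pyruvate, had -0.054 (SE 0.19, adjusted p = 0.957) and -0.18 (SE 0.19, adjusted p = 0.684) at mean signals of 5244 ± 1048 in KO_RA, 5347 ± 908 in KO_vehicle, 5476 ± 1301 in WT_RA and 6054 ± 811 in WT_vehicle. Pdk3, a related kinase, had mean signals of 1985 ± 268 in KO_RA, 1933 ± 135 in KO_vehicle, 1587 ± 132 in WT_RA and 1755 ± 161 in WT_vehicle and was not called, with 0.31 (SE 0.15, adjusted p = 0.33) under RA.

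The oxygen sensors and the factor they control differed in sign. Hif1a (probe set 1427418_a_at), the oxygen-labile subunit, had signals of 4174, 4609.5 and 5428 in KO_RA, 4259, 3896 and 4240.2 in KO_vehicle, 6817, 7336 and 6710.5 in WT_RA and 6613, 6368 and 4604 in WT_vehicle. The KO arrays of each medium were below the WT arrays of that medium, by little in vehicle, where WT_vehicle replicate 3 lay near the KO level. Its difference was -0.56 (SE 0.15, adjusted p = 0.0418) under RA and -0.49 (SE 0.15, adjusted p = 0.0894, 0.0216 blocked by run) in vehicle. The RA call was fragile: it ended without any 1 of 8 arrays, KO_RA 1 or 2, KO_vehicle 1 or 2, WT_RA 1, 2 or 3 or WT_vehicle 2 (adjusted p of 0.0502 to 0.194), and the mean of its 4 probe sets gave -0.20, not called. Messenger level says nothing of the protein, which is set mainly by its breakdown.

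Egln3 (probe set 1418649_at) encodes PHD3, a hydroxylase whose own gene is a classic Hif target. Its signals were 1393, 1299.5 and 970.5 in KO_RA, 1868, 1590.5 and 839.9 in KO_vehicle, 469, 320.5 and 440.1 in WT_RA and 929, 871 and 597 in WT_vehicle. All KO_RA arrays were above all WT_RA arrays, and in vehicle KO replicate 3 fell among the WT arrays. Egln3 was 2.91-fold higher under RA, 1.54 (SE 0.27, adjusted p = 0.00174), and in vehicle its difference was 0.78 (SE 0.27, adjusted p = 0.127, 0.00732 blocked by run). Its other probe set gave 0.61 under RA and was not called. Egln1, or PHD2, the main sensor in normal oxygen, had mean signals of 1247 ± 427 in KO_RA, 1108 ± 483 in KO_vehicle, 984 ± 129 in WT_RA and 950.4 ± 48.2 in WT_vehicle and a difference of 0.28 (SE 0.30, adjusted p = 0.793), while its other probe set was called higher, at 1.00 (adjusted p = 0.0178).

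Among the other targets of hypoxia, Bnip3 (probe set 1422470_at) was higher in KO cells in both media. It encodes a mitochondrial outer membrane protein that recruits the autophagy machinery. Its signals were 11164, 9817 and 8506 in KO_RA, 10763, 10966 and 7199.8 in KO_vehicle, 3300.3, 2731 and 4212 in WT_RA and 3572, 3898 and 3796 in WT_vehicle. The lowest KO array was above the highest WT array. Bnip3 was 2.9-fold higher in KO_RA, 1.53 (SE 0.18, adjusted p = 5.67e-05), and 2.52-fold higher in KO_vehicle, 1.33 (SE 0.18, adjusted p = 0.000328).

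Ddit4, the stress-induced inhibitor of mTORC1 known as REDD1, had signals of 10820.1, 11435 and 10175 in KO_RA, 11309.8, 12088 and 6896 in KO_vehicle, 7138, 7085 and 6707 in WT_RA and 7455, 8425 and 9558 in WT_vehicle. KO_RA did not overlap WT_RA, and the difference was 0.63 (SE 0.18, adjusted p = 0.0513, 0.00634 blocked by run). Vegfa, the angiogenic growth factor that is the best known Hif target, had negative differences. Its signals were 923, 1091 and 964 in KO_RA, 1025, 978 and 582 in KO_vehicle, 1999, 1598 and 1089.8 in WT_RA and 1405, 1362 and 853 in WT_vehicle. The RA groups overlapped at WT_RA replicate 3, and the difference was -0.61 (SE 0.25, adjusted p = 0.238, 0.0119 blocked by run) under RA and -0.49 (SE 0.25, adjusted p = 0.361, 0.0514 blocked by run) in vehicle. The carbonic anhydrase Car9 and the ankyrin repeat gene Ankrd37, both strongly induced by hypoxia in many cells, were at the floor of detection. Car9 had mean signals of 60.1 ± 57 in KO_RA, 25.8 ± 14.2 in KO_vehicle, 78.4 ± 24.2 in WT_RA and 48.2 ± 18.8 in WT_vehicle, Ankrd37 had 96.3 ± 44.1 in KO_RA, 117 ± 64.8 in KO_vehicle, 65.6 ± 26.2 in WT_RA and 54.7 ± 34.5 in WT_vehicle, and no contrast was called for either.

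**Figure D3:**
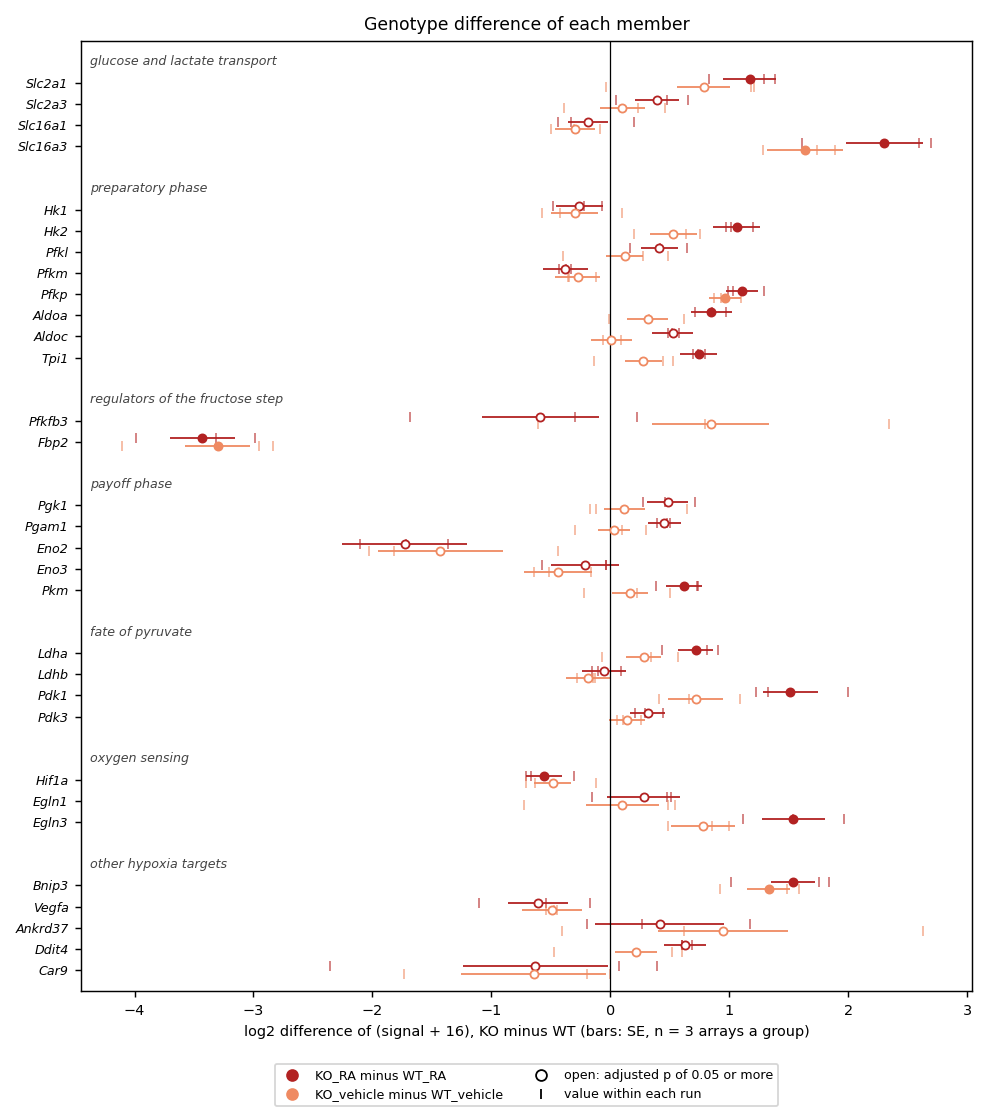
Log2 difference of signal + 16 between KO and WT for each of the 31 members by pathway step, under RA (dark red) and in vehicle (orange), with bars for the SE from limma (n = 3 arrays a group), small ticks for the value within each run and filled circles where the adjusted p was under 0.05. Dark circles lie to the right of orange ones for most members, and 13 dark and 4 orange circles are filled.

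In vehicle fewer members differed. Between KO_vehicle and WT_vehicle 3 were higher (Slc16a3, Pfkp and Bnip3) and 1 was lower (Fbp2), 12.9% of the set, while 6.42% of all genes and 9.53% of genes above background were called. The higher ones were 9.68% of the set, and 2.41% of all genes were called higher. All 4 calls held without any 1 of the 12 arrays, but that on Slc16a3 ended without the intensity trend (adjusted p = 0.0803) and that on Pfkp ended after each array was centred on its median (adjusted p = 0.178), leaving 3 calls under each setting. The count was 6 without KO_vehicle replicate 3 and 7 without WT_vehicle replicate 3, with the share of all genes not given. In the fit blocked by run, 7 were higher, adding Slc2a1, Hk2, Pdk1 and Egln3, and 2 were lower, adding Hif1a, which is 29.0% of the set, and 13.5% of all genes were called. The higher ones were then 22.6% of the set, and 5.78% of all genes were called higher.

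The median difference in vehicle was 0.12 over the members and 0.13 over all genes, so the members' median was close to that of the array. KO_vehicle replicate 3 bears on this. Within the runs of replicates 1, 2 and 3 the members' medians were 0.23, 0.48 and -0.12, and those of all genes were -0.038, 0.045 and 0.30. Centring each array on its median took the members' median to -0.10, and leaving out KO_vehicle replicate 3 took it to 0.29. That KO against WT differed more under RA than in vehicle is the same quantity as the difference of the RA changes, given below, for which no member was called.

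RA alone changed few members at 24 h. In WT cells 1 member was called, Pdk1, which was 2.24-fold lower in WT_RA than in WT_vehicle, -1.16 (SE 0.23, adjusted p = 0.0287, 3.4e-05 blocked by run). That is 3.23% of the set, while 0.824% of all genes were called and 0.335% of all genes were lower. Within runs Pdk1 changed by -0.89, -1.06 and -1.54, and a second of its 4 probe sets fell by 1.02 (adjusted p = 0.00108). The call on the first probe set ended without any 1 of 6 arrays, which were WT_RA replicates 1, 2 and 3, WT_vehicle replicates 2 and 3 and KO_vehicle replicate 1 (adjusted p of 0.0516 to 0.186).

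In the fit blocked by run, 5 members (16.1%) changed in WT cells, while 3.35% of all genes were called and 1.56% were lower. Fbp2 was higher, and 4 were lower: Pdk1, Egln3 at -0.93 (SE 0.27, adjusted p = 0.232, 0.00626 blocked by run), Hk2 at -0.57 (SE 0.20, adjusted p = 0.444, 0.0186 blocked by run) and Tpi1 at -0.49 (SE 0.16, adjusted p = 0.342, 0.0392 blocked by run). Of the 31 members 23 were below 0, and the median was -0.19 over the members, against 0.053 over all genes. Other lists leaned alike, with 11 of 13 pentose phosphate and serine genes below 0 (median -0.19) and 11 of 13 housekeeping genes (-0.095), and genes with a mean signal over 10000 had a median of -0.085. Within runs the members' medians were -0.16, -0.27 and -0.30, and WT_RA had the lowest mean log2 level of the 4 groups for 18 of the 31. All 4 transporters, all 8 preparatory enzymes and all 4 genes of pyruvate fate had values below 0. In limma without the block 9 members of the 31 had an unadjusted p under 0.05, as did 1633 of all 18193 genes.

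In KO cells RA moved none of the members past the threshold, in either fit, while 0.148% of all genes were called, and 0.495% blocked by run. In limma 3 members had an unadjusted p under 0.05, and 4 with the block. Without the block 1180 of all 18193 genes had such a p. The 3 smallest p-values were those of Fbp2 at 0.64 (SE 0.27, adjusted p = 0.8), Slc16a1 at -0.39 (SE 0.17, adjusted p = 0.819) and Pfkfb3 at -1.07 (SE 0.49, adjusted p = 0.829). The median was 0.044 over the members, with 20 above 0 and 11 below, and -0.05 over all genes, which within the runs of replicates 1, 2 and 3 was 0.057, 0.0029 and -0.22. The members' median has no settled direction, since it was -0.029 without KO_vehicle replicate 3, 0.13 without KO_vehicle replicate 2 and 0.29 after centring.

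**Figure D4:**
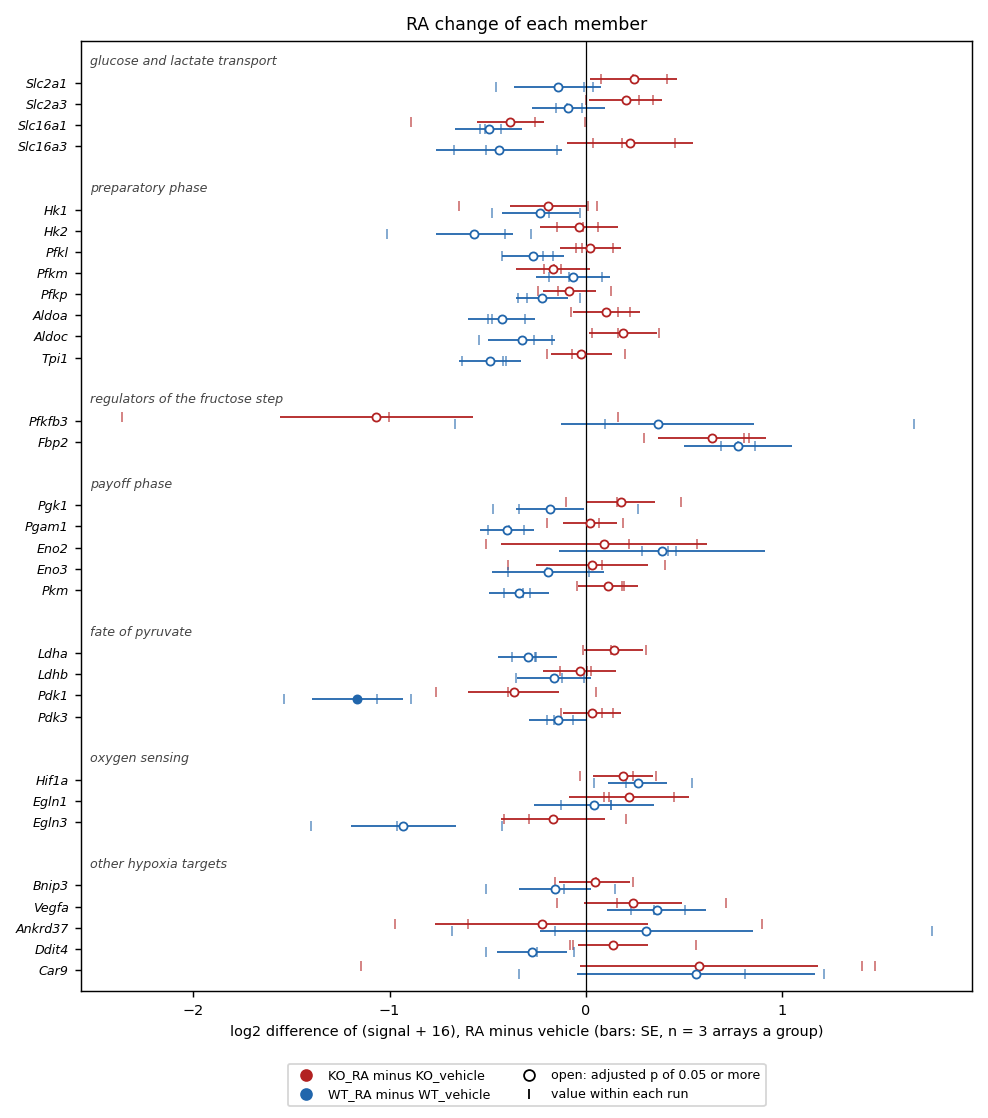
Log2 difference of signal + 16 between RA and vehicle for each of the 31 members by pathway step, in KO (dark red) and WT (blue) cells, with bars for the SE from limma (n = 3 arrays a group), small ticks for the value within each run and filled circles where the adjusted p was under 0.05. Most blue circles lie left of 0, dark red ones lie around 0, and Pdk1 in WT cells is the only filled one.

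The difference of the RA changes, KO minus WT, was not called for any member in either fit. By limma 0.0% of all genes were called without the block and 0.0879% with it. An unadjusted p under 0.05 was found for 4 members without the block and 11 with it. Without it 865 of all 18193 genes had such a p, and their number with the block is not given. The median over the members was 0.22, with 24 of 31 above 0, and 0.57 after each array was centred on its median. Over all genes it was -0.10, and within the runs of replicates 1, 2 and 3 it was 0.037, -0.011 and -0.34. Genes with mean signals of 1000 to 10000 and over 10000 had medians of 0.078 and 0.16, and 12 of 13 housekeeping genes were above 0 (median 0.16). The smallest p-values belonged to Pdk1, with 0.80 (95% interval 0.11 to 1.49, adjusted p = 0.978, 0.295 blocked by run), Aldoa, with 0.53 (0.019 to 1.05), and Pgam1, with 0.42 (0.015 to 0.83). The second Pdk1 probe set gave 0.80 (adjusted p = 0.0953 with the block). An RA response of these genes that differs between the genotypes was thus not detected with 3 arrays a group, and for Slc2a1, at 0.39 with an interval of -0.27 to 1.05, every value in that range is within the error. The contrasts of 1 genotype or 1 medium share arrays with this one and with each other.

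Other probe sets of the members were used as a check of the chosen ones. There were 33 of these for 17 genes, 29 of them above background. For the contrasts in which the chosen probe set was called, 20 of 22 values from other probe sets had the same sign, 11 were called the same way and 0 the opposite way. With the mean of all probe sets of a gene, 14 members were called higher and 2 lower between KO_RA and WT_RA.

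Further genes of the same pathways were read beside the members. Of 24 other glycolysis isozymes and regulators, 1 was higher (Pgm1) and 4 were lower (Fbp1, Pdk2, Pgam2 and Pgm2) in KO_RA than in WT_RA. All of these but Pgam2 were also called, in the same direction, in vehicle. Over all genes 7.55% were called under RA, 11.3% of genes above background, and 6.42% in vehicle. Under RA the 13 housekeeping genes had 1 called higher and 2 called lower. Fbp1, the liver fructose bisphosphatase, had signals of 79.1, 204 and 105 in KO_RA, 82.5, 68.8 and 305 in KO_vehicle, 1237, 1342 and 1096 in WT_RA and 489.6, 416 and 412 in WT_vehicle, with no overlap between genotypes. It differed by -3.18 (SE 0.40, adjusted p = 0.00011) under RA and by -1.71 (SE 0.40, adjusted p = 0.0212) in vehicle, in the same direction as Fbp2. Pdk2, another pyruvate dehydrogenase kinase, had signals of 121, 102 and 64.9 in KO_RA, 62.5, 83.4 and 77.5 in KO_vehicle, 602, 564 and 477 in WT_RA and 179.6, 172 and 244 in WT_vehicle and differed by -2.36 (SE 0.31, adjusted p = 0.000144) and -1.24 (SE 0.31, adjusted p = 0.0289), opposite to Pdk1. Pgm1, which links glucose 1-phosphate to glycolysis, was higher, by 1.03 (SE 0.15, adjusted p = 0.00045) and 0.88 (SE 0.15, adjusted p = 0.0023), and Pgm2 was lower, with a log2 difference of -0.64 (SE 0.15, adjusted p = 0.0196) in vehicle.

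Of 32 other genes of the Hif pathway and hypoxia targets, 5 were higher (Stc2, Fam162a, Higd1a, Epas1 and Kdm3a) and 2 lower (Plod1 and Cited2) under RA. In vehicle 3 were higher (Kdm3a, Epas1 and Fam162a) and 4 lower (P4ha1, P4ha2, Plod1 and Cited2). Over all genes 7.55% were called under RA and 6.42% in vehicle. Stc2, a secreted glycoprotein that responds to hypoxia and to stress of the endoplasmic reticulum, had signals of 1873, 2201 and 1721 in KO_RA, 2182, 2365 and 1404 in KO_vehicle, 574, 588 and 623 in WT_RA and 1164, 1401 and 1130.0 in WT_vehicle. It was higher in KO_RA by 1.67 (SE 0.19, adjusted p = 3.53e-05) and lower in WT_RA than in WT_vehicle by 1.02 on the log2 scale (adjusted p = 0.0158). Fam162a and Higd1a, mitochondrial proteins, were higher in KO_RA by 0.84 (SE 0.13, adjusted p = 0.000523) and 0.87 (SE 0.13, adjusted p = 0.000545). In vehicle the demethylase Kdm3a was higher in KO, by 0.85 (SE 0.17, adjusted p = 0.00732), while the collagen-modifying hydroxylases P4ha1 and Plod1 were lower, with log2 differences of -1.59 (SE 0.27, adjusted p = 0.00187) and -1.14 (SE 0.22, adjusted p = 0.00633). Hypoxia targets thus went both ways in KO cells, and the summed endoderm markers were lower in the same cells as the collagen-modifying enzymes. Their part in these differences was not tested.

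Likeness across arrays was described for Slc2a1 and Pdk1 over the 12 arrays after run means were removed, with arrays that share groups. Among the members, Slc2a1 correlated best with Ldha (Pearson's r = 0.95), Slc16a3 (0.95) and Bnip3 (0.94), and outside the lists with Igfbp2 (0.99), Rpl27 (0.98) and Grb10 (0.98). Pdk1 correlated best with Hk2 (0.95), Tpi1 (0.93) and Egln3 (0.91) among the members, and with Pes1, Pfas and Slco4a1 (0.99 each) outside them.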

How the data were processed

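Total RNA of F9 cells was measured on 12 Affymetrix mouse arrays, 3 in each of 4 groups taken from the sample labels. The deposited values are MAS5 signal intensities on a linear scale, and the 2% trimmed mean of every deposited array was 500. Intensities were turned into log2(signal + 16), and 45037 of 45101 probe sets, leaving out 64 controls, were fitted together in limma 3.58.1 (R 4.3.3), with lmFit and eBayes, the spread following intensity, no block, 4 groups and 8 residual degrees of freedom,, with Benjamini-Hochberg adjustment over all of them and a threshold of 0.05. The script was tested on simulated data. Precision is limited by how many arrays there are, not by a depth.

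Gene names are those of the platform annotation, which gives 34945 probe sets 1 symbol, 932 several and 9160 none. For each gene the probe set of highest mean log2 signal was used. Values on every array are given for members called in either fit and, where a contrast had fewer than 3 calls, for the 3 members of smallest p. Of the companion lists, the called genes are named, with values for up to 3 a list and contrast, by smallest p. The members and the lists were chosen with earlier results of these data known. The members' count and median are read beside those of all genes, with no test of the list.

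The run is the set of 4 arrays with the same hybridization time in the array files. Replicates 1, 2 and 3 of every group shared a run each, so the pairing by replicate number is the pairing by run, and the fit with this replicate block has 6 residual degrees of freedom. Alternatives were the pseudocount, the scaling, a filter at background, the trend, the groups fitted, blocks, array weights, all probe sets of a gene, a stricter threshold and leaving out arrays.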

Additional observations from a re-analysis of the deposited data

How the results depend on the processing

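Results are the number of members called and the members' median log2 difference in each comparison. Blocked by run, which is the replicate block, 9 members were called between KO_vehicle and WT_vehicle (4 without it) and 5 between WT_RA and WT_vehicle (1 without it), and 19 between KO_RA and WT_RA (13 without it). In these comparisons, in the same order, 13.5%, 3.35% and 14.5% of all genes were called with this block and 6.42%, 0.824% and 7.55% without it. For the other settings that share is not given, so changes of the members cannot be told from changes over the array. With a block for the 2 kinds of sample code in the titles the counts were 20 for KO_RA against WT_RA, 10 in vehicle and 6 for RA in WT cells, and with array weights 20, 13 and 3. Without KO_vehicle replicate 3 and blocked by run they were 20, 14 and 6. Without an intensity trend they were 6 for KO_RA against WT_RA, 3 in vehicle and 0 for RA in WT cells. After each array was centred on its median they were 8, 3 and 0, and 7 for KO_RA against WT_RA when also blocked by run. At a threshold of 0.01 the count for RA in WT cells was 0. Quantile normalization blocked by run gave 9 in vehicle and 7 for RA in WT cells, and the mean of all probe sets of a gene gave 7 in vehicle. With only the groups compared in the fit, the 1 call for RA in WT cells was Fbp2, not Pdk1, and the difference of the RA changes has no value there.

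When each array was left out in turn, the counts were 10 to 16 for KO_RA against WT_RA, 4 to 7 in vehicle (7 without WT_vehicle replicate 3), 0 to 1 for RA in WT cells, and 0 for RA in KO cells and for the difference of the RA changes. The medians then ranged from 0.35 to 0.51 for KO_RA against WT_RA, from 0.038 to 0.29 in vehicle, from -0.30 to -0.17 for RA in WT cells, from -0.029 to 0.13 for RA in KO cells and from 0.19 to 0.39 for the difference of the RA changes. Centring each array on its median, with or without the run as a block, gave medians of -0.10 in vehicle, 0.29 for RA in KO cells and 0.57 for the difference of the RA changes. The median in vehicle was 0.31 with array weights, 0.29 without KO_vehicle replicate 3, with or without the block, and 0.29 without the 2 late-scanned arrays. The mean of all probe sets of a gene gave 0.57 for KO_RA against WT_RA. Over all alternatives, single called differences kept their call in 451 cases, lost it with the same direction in 53 and reversed in 0. The cause of these changes was not tested, and with 3 arrays a group, differences the size of most vehicle values here are within the error. The combinations of quantile normalization or centring with the block, and leaving out both late-scanned arrays, were chosen after seeing the data.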

Other observations

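Of 26 genes of pyruvate dehydrogenase and the tricarboxylic acid cycle, 1 was called in any contrast without the block. Between KO_RA and WT_RA 7.55% of all genes were called in that fit. Citrate synthase, Cs, had signals of 5356, 5312 and 7279 in KO_RA, 5240.4, 5215 and 6009 in KO_vehicle, 3559.9, 4068 and 4248 in WT_RA and 3997, 3724 and 5148 in WT_vehicle, and was higher in KO_RA than in WT_RA by 0.58 (SE 0.16, adjusted p = 0.0442). Of 13 genes of the pentose phosphate and serine branches, Mthfd2, a mitochondrial enzyme of one-carbon metabolism, was the only one called without the block, higher in KO_RA by 0.53 (SE 0.15, adjusted p = 0.0479).

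Of 10 genes of the Myc family and its partners, Myc was called lower with RA in WT cells, where 0.824% of all genes were called. Its signals were 289, 368 and 430.1 in KO_RA, 967, 998 and 518 in KO_vehicle, 152, 153 and 174 in WT_RA and 626, 713 and 684 in WT_vehicle. It was lower in WT_RA than in WT_vehicle without overlap, with a log2 difference of -1.97 (SE 0.25, adjusted p = 0.000625), and higher in KO_RA than in WT_RA by 1.09 (SE 0.25, adjusted p = 0.0145), a call that ended without any 1 of KO_RA replicates 2 and 3 and WT_RA replicates 1 and 2. Between KO_RA and KO_vehicle its difference was -1.12 (SE 0.25, adjusted p = 0.186, 0.0254 blocked by run), and that of Mycn was -0.97 (SE 0.20, adjusted p = 0.0994, 0.00467 blocked by run). The difference of the RA changes was not called for any gene of this list in either limma fit. An unadjusted p under 0.05 was found for 1 gene of the list without the block and 2 with it. Without the block 865 of all 18193 genes had such a p. Mlx, which is on this list but is not a Myc gene, was higher in KO_RA by 0.75 (SE 0.19, adjusted p = 0.0256). Mxd4, an antagonist of Myc, was lower in KO_vehicle, with a log2 difference of -1.04 (SE 0.27, adjusted p = 0.0377). Of 13 housekeeping genes, 1 was higher and 2 were lower in KO_RA than in WT_RA, while 7.55% of all genes were called. Actg1 was higher by 0.54 (SE 0.15, adjusted p = 0.0384), and B2m and Gusb were lower, with log2 differences of -1.39 (SE 0.18, adjusted p = 0.000121) and -1.02 (SE 0.21, adjusted p = 0.00824).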
